A study of Mus musculus with 4 samples.

Results

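Immature granule-gene neutrophils were the cells of the digit libraries with abundant transcripts of both the alarmins S100a8 and S100a9 and the specific granule proteins Camp, Ngp and Ltf. A cell was chosen when it had at least 500 genes, at least 1000 unique molecular identifiers (UMIs, each counted as 1 captured transcript), at most 10% mitochondrial UMIs, at least 20 UMIs of S100a8 and S100a9 together, and at least 10 UMIs of Camp, Ngp and Ltf together. The first 3 conditions left 39266 filtered cells of 50625 deposited barcodes, and 771 of these cells were chosen. There were 542 in the unamputated library, 229 in the library from 17 days post-amputation (dpa), and 0 in the 12 dpa and 28 dpa libraries. The UMI counts of these 5 genes chose the cells, so the levels of these genes are given as a description.

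The study followed the mouse digit after amputation through the middle phalanx (P2), a level at which the tissue heals by fibrosis, per the labels. All 4 groups were wild-type FVB/NJ mice aged 8 weeks, labelled as pools of males and females, and each group was 1 library: unamputated digit and digit at 12, 17 and 28 dpa. The dissected tissue was digested with trypsin and collagenase I. After lysis of red cells, live cells that excluded propidium iodide were sorted and captured with 10x Chromium 3′ v3 chemistry. With 1 library a group, no test between groups was possible and no difference below has a replicate check. The intervals are exact 95% intervals that cover counting error only, since cells of 1 library are not replicates of a condition.

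Neutrophils mature in the bone marrow and fill their granules in sequence. Promyelocytes make the primary (azurophil) granule proteases and myeloperoxidase, myelocytes and metamyelocytes make the specific granule proteins under the factor C/EBP epsilon, and later cells make gelatinase granules and secretory vesicles before they leave for the blood. Cells that transcribe Camp, Ngp and Ltf are therefore usually found in marrow, while neutrophils in blood and tissue have largely stopped and instead transcribe chemokine receptors and, on activation, cytokines. Whether marrow was part of the dissected tissue is not given in the sources used here.

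The libraries held 92313847 to 197140774 UMIs over 8813 to 16045 barcodes. Sex was called from Y-linked transcripts and Xist: 9465, 0, 5215 and 5791 filtered cells were called male and 1, 3845, 0 and 0 female in the unamputated, 12, 17 and 28 dpa libraries, although the labels describe pools of both sexes. Among the chosen cells, 306 and 128 were called male in the unamputated and 17 dpa libraries and 0 female in either. Between 19 and 87 deposited barcodes were shared by a pair of libraries, and none was a chosen cell in both libraries of its pair. The 12 dpa library, the 1 library called female, cannot be told apart from its sex. The unamputated, 17 and 28 dpa libraries were alike in sex by these calls.

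Granule-gene neutrophils made up 4.53% of filtered cells in the unamputated library (542 of 11954; 95% interval 4.17 to 4.92) and 2.63% at 17 dpa (229 of 8693; 2.31 to 2.99). At 12 dpa there were 0 among 6942 filtered cells, which allows a share of up to 0.0432%, and at 28 dpa 0 among 11677, which allows up to 0.0257%. No cell of those 2 libraries came near the minimum for Camp, Ngp and Ltf. The largest sum of Camp, Ngp and Ltf in any deposited barcode, filtered or not, was 4 UMIs at 12 dpa and 2 at 28 dpa, against 3354 in the unamputated library and 1940 at 17 dpa.

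Neutrophils as such were present in every library. Cells with at least 20 UMIs of S100a8 and S100a9 numbered 1100, 244, 473 and 149 in the unamputated, 12, 17 and 28 dpa libraries, or 9.20%, 3.51%, 5.44% and 1.28% of filtered cells. Granule-gene neutrophils were 49.3% of these cells in the unamputated library (46.3 to 52.3) and 48.4% at 17 dpa (43.8 to 53.0), so at these thresholds the shares of the 2 libraries lay within each other's counting intervals. With minimums set as shares of a cell's UMIs they were 51.0% and 45.5%, and with a stricter filter on cells 65.1% and 72.7%, so the order of the 2 libraries turned with the setting. Among the 244 cells at 12 dpa the limit was 1.23%, and among the 149 at 28 dpa it was 2.01%. A comparison class, granule-gene-low neutrophils, was made of the S100a8 and S100a9 cells with fewer than 10 UMIs of Camp, Ngp and Ltf and at least 2 of Csf3r, Cxcr2 and Il1r2, which are receptors of mature neutrophils. It held 484, 209, 213 and 136 cells, or 4.05%, 3.01%, 2.45% and 1.16% of filtered cells, and 74, 35, 31 and 13 cells fell in neither class.

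**Figure D1:**
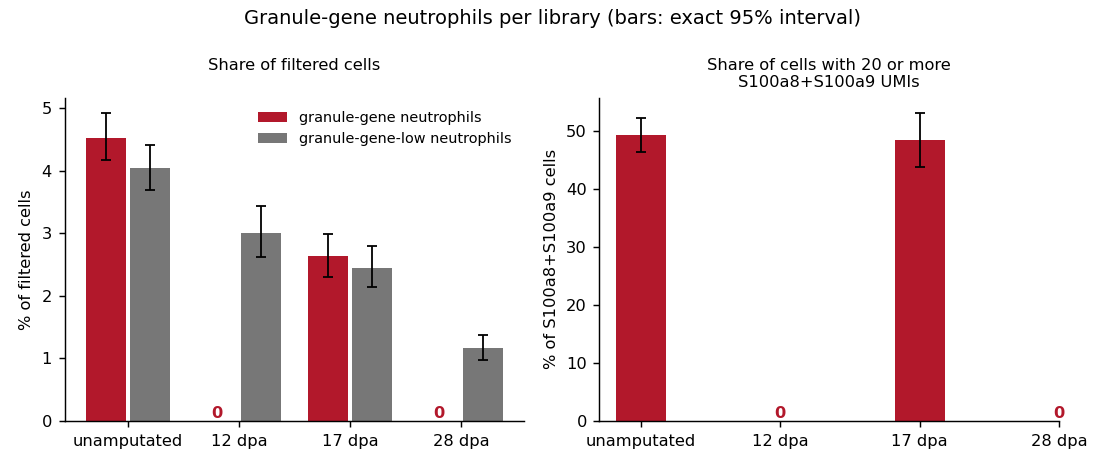
Left, granule-gene and granule-gene-low neutrophils as a percentage of filtered cells in each library. Right, granule-gene neutrophils as a percentage of cells with at least 20 UMIs of S100a8 and S100a9. Error bars are exact 95% binomial intervals and a 0 marks a library with no such cell; the right panel stands at 49.3% and 48.4% in the unamputated and 17 dpa libraries.

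The cells formed a continuous range above the thresholds and few lay at them. In the unamputated library 25 chosen cells had 10 to 19 UMIs of Camp, Ngp and Ltf, just inside the threshold, and 29 cells with enough S100a8 and S100a9 had 5 to 9, just outside it. At 17 dpa the same counts were 20 and 16. The S100 threshold was seldom decisive: 1 chosen cell, in the unamputated library, had 20 to 29 UMIs of S100a8 and S100a9, and 1 cell with enough granule transcripts had 10 to 19. The median chosen cell had 595.5 UMIs of the 3 granule genes in the unamputated library and 420 at 17 dpa.

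**Figure D2:**
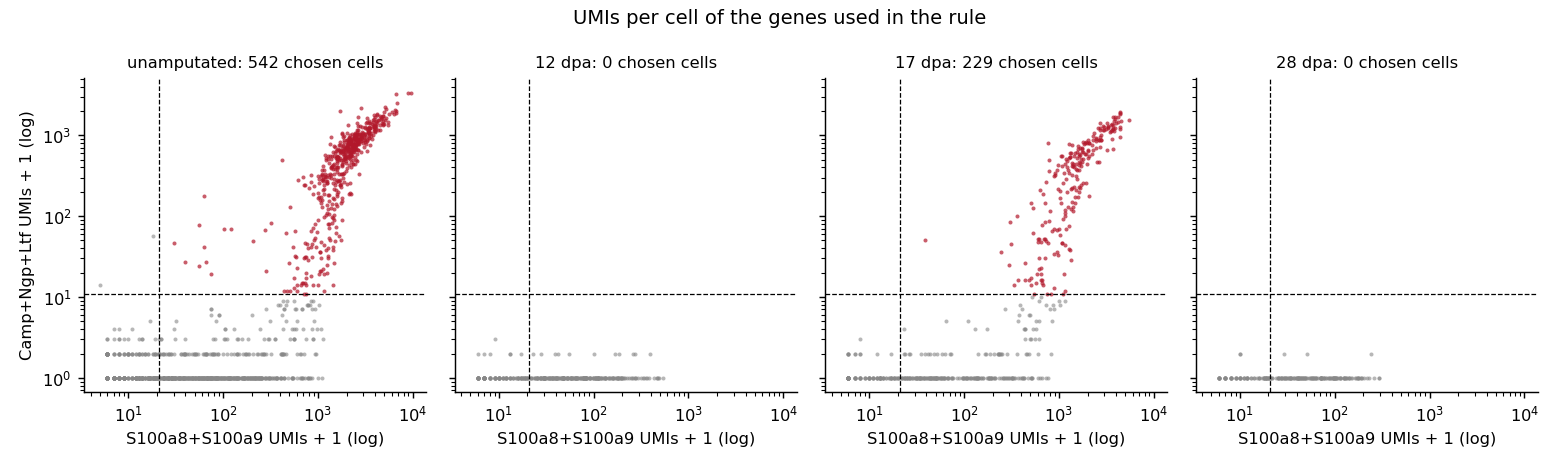
Each point is a filtered cell with at least 5 UMIs of either sum, placed by its UMIs of S100a8 and S100a9 (horizontal, log scale, 1 added) and of Camp, Ngp and Ltf (vertical, log scale, 1 added). Dashed lines are the thresholds of 20 and 10 UMIs and chosen cells are red; the upper right field holds 542 and 229 cells in the unamputated and 17 dpa libraries and none at 12 or 28 dpa.

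The label was checked against marker genes, which included those of mature neutrophils. The mature neutrophil list (Csf3r, Cxcr2, Il1r2, Il1b and Clec4d) summed to 1000 UMIs per 1000000 UMIs of the class (CPM) in the unamputated library and 1417 CPM at 17 dpa, against 7687 and 6698 CPM in granule-gene-low neutrophils. Csf3r, Cxcr2 and Il1r2 of this list also chose the granule-gene-low class, so its higher sum is partly set by that choice and is no check of the label. At least 3 UMIs of this list were found in 325 of 542 and 152 of 229 chosen cells. Lcn2, the siderophore-binding granule protein lipocalin-2, was not part of the rule, and 98.7% of chosen cells in the unamputated library and 97.4% at 17 dpa had a UMI of it. Fibroblast-like cells, which should lack Lcn2, had one in 3.52% and 2.75% at higher median depths (18797.5 and 12472.5 UMIs, against 7664 and 6365 in the chosen cells). Ly6g, a neutrophil surface antigen, was found in 391 and 150 chosen cells, that is 72.1% and 65.5%, against 0.137% and 0.146% of fibroblast-like cells. A comparison with fibroblast-like cells cannot set immature apart from mature neutrophils.

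The summed level of Camp was 36816 CPM in the unamputated library and 31934 CPM at 17 dpa. Camp encodes the cathelicidin precursor, an antimicrobial peptide. In granule-gene-low neutrophils Camp was at 26.4, 2.88, 32.6 and 1.94 CPM in the unamputated, 12, 17 and 28 dpa libraries. A Camp UMI was found in 10.1% and 10.3% of granule-gene-low neutrophils of the unamputated and 17 dpa libraries and in 12.4% and 6.99% of their fibroblast-like cells, at median depths of 2552.5 and 2165 UMIs in the low class and 18797.5 and 12472.5 in fibroblast-like cells. Camp was at 6.50 and 5.09 CPM in those fibroblast-like cells, below the low class per UMI. Whether the low class itself transcribes Camp was not tested. At 12 and 28 dpa, 0.302% and 0.376% of fibroblast-like cells had a Camp UMI. The 2 libraries with chosen cells thus also had the higher share of Camp-positive fibroblast-like cells.

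Markers of other cell types were present in some chosen cells. The 5 fibroblast markers summed to 2279 CPM in the unamputated library and 4646 CPM at 17 dpa, with all 5 above 0 in both, and at least 3 such UMIs in 165 of 542 and 131 of 229 cells. The 4 keratinocyte markers summed to 697 and 261 CPM and the 5 macrophage markers to 43.8 and 364 CPM. The most widespread was the monocyte list, with at least 3 UMIs in 408 of 542 and 169 of 229 chosen cells, against 42 of 484 and 14 of 213 granule-gene-low neutrophils. Its 4 markers summed to 554 and 770 CPM, of which Ly6c2, a surface antigen of myeloid cells, gave 486 and 652 CPM. Mural markers summed to 567 and 511 CPM and dendritic markers to 253 and 162 CPM. Of the 3 eosinophil markers, Epx and Prg2 were at 0 in both libraries and the list summed to 0.186 and 0.946 CPM, and the 4 erythroid markers were all at 0 at 17 dpa. The doublet caller Scrublet marked 86 of 542 and 48 of 229 chosen cells. The marked share of all deposited barcodes was fixed by their number, at 12.8% in the unamputated library and 8.41% at 17 dpa. Of the chosen cells, 121 and 72 had at least 10 UMIs of markers of other types. The rule removes no doublets, so results that turn on these cells are given with and without them.

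Camp, Ngp, Ltf and Mmp8 lie on chromosome 9 in GRCm38. Camp spans chr9:109847379-109849617 on the minus strand, Ngp chr9:110419747-110423012 and Ltf chr9:111019271-111042767 on the plus strand, so the 3 genes of the rule lie within 1.20 Mb. Mmp8, neutrophil collagenase, lies at chr9:7558456-7568485 (plus strand) and Lcn2 at chr2:32384633-32388252 (minus strand), all protein-coding genes of GENCODE M21. C/EBP epsilon is known to act on specific granule genes. The 250 bases before the RefSeq start of Camp, Ngp, Ltf and the 10 specific granule genes were searched on both strands for TTGCNNAA, a C/EBP-type motif. Promoters were found for 11 of 13 genes, and 4 of these (Ngp, Ltf, Lcn2 and Mmp8) held a match, against 9.56% of 32851 promoters searched in the same way. The stretches below, from the RefSeq promoter table for GRCm38.p6, are read 5′ to 3′ on the strand of the gene, with matches in capitals. They are the parts outside the GENCODE gene for Camp, Ngp, Ltf and Mmp8, and 30 bases around a match where the match lies inside the gene.
Camp, chr9:109849618-109849706, minus strand: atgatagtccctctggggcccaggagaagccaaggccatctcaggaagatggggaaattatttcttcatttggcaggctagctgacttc
Ngp, chr9:110419558-110419746, plus strand: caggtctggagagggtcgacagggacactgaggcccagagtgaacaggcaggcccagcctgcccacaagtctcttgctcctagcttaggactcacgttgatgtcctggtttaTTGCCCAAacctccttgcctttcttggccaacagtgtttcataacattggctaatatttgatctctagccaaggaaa
Ngp, second match, chr9:110419778-110419807, plus strand: tttatgtcaccggcagttcTTGGGCAAggc
Ltf, chr9:111019042-111019270, plus strand: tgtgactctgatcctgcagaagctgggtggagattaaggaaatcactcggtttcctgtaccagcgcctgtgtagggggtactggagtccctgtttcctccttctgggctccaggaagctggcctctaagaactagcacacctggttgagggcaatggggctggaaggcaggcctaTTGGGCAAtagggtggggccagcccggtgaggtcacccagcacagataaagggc
Lcn2, chr2:32387937-32387966, minus strand: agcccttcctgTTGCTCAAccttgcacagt
Mmp8, chr9:7558179-7558428, plus strand: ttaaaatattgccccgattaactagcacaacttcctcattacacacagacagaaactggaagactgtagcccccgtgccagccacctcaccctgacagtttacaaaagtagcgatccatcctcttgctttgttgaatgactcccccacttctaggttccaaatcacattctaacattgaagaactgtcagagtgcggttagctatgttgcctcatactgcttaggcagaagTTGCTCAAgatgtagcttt

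In these stretches the Ngp match begins 138 bases before the RefSeq start, the Ltf match 75, the Lcn2 match 216 and the Mmp8 match 19, and the second Ngp match begins 11 bases before it. No match for these letters was found in the 250 bases of Camp. An ETS-type motif, GAGGAA, was found in 6 of the 11 promoters, against 23.3% of all promoters. A match is a run of letters and was not tested as a binding site.

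Beside the granule-gene-low neutrophils of the same library, the chosen cells had higher levels of most specific granule genes and lower levels of most genes of the mature and inflammatory list. The contrast is part of the rule, so its values describe how the cells were separated. Genes of at least 20 CPM in either class were compared by the log2 ratio of summed CPM after adding 1 CPM, and a gene past 2-fold was counted as higher or lower. In the unamputated library 5.43% of 6654 genes were higher and 17.8% lower in the chosen cells, and at 17 dpa 7.39% of 6905 were higher and 20.8% lower. The 5 genes of the rule were past 2-fold higher in both libraries. The limit on Camp, Ngp and Ltf separates the classes, while both classes had to pass the same minimum for S100a8 and S100a9.

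Of the 10 specific granule genes, 9 were higher in the chosen cells in both libraries, with medians of 2.52 and 3.56 log2 units against −0.33 and −0.31 over all genes tested. Lcn2 was at 7995 against 122 CPM in the unamputated library and 7500 against 205 CPM at 17 dpa. Chil3, a chitinase-like lectin, was at 3486 against 89.0 CPM and 2873 against 42.2 CPM. Cd177, a surface glycoprotein of neutrophils, was at 526 against 28.1 CPM and 426 against 24.0 CPM. Cyba, a subunit of the NADPH oxidase, was the gene within 2-fold, at 0.88 and 0.86 log2 units. Orm1, an acute phase protein, had 0 UMIs in the 17 dpa granule-gene-low class, and 72.4 CPM in the chosen cells, at least 18.9-fold higher against a floor of 3 UMIs over the class.

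Cebpe, which encodes C/EBP epsilon, was at 125 CPM in the chosen cells and 6.71 CPM in the low class of the unamputated library, and at 140 and 7.67 CPM at 17 dpa. It was the 1 transcription factor of 9 tested that was higher, by 4.03 and 4.02 log2 units. Cebpb, linked to emergency granulopoiesis and inflammation, was lower by the same comparison in both libraries, at 551 against 3128 CPM and 610 against 1951 CPM. Irf8 was also lower in both and Runx1 in the unamputated library. Cebpe and Cebpb therefore stood in opposite order between the classes.

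The NADPH oxidase makes superoxide in the phagosome. Its catalytic subunit gene Cybb was at 1488 against 204 CPM in the unamputated library and 1372 against 167 CPM at 17 dpa, and Rac2, its GTPase, was higher by 1.14 and 1.44 log2 units. Cyba, Ncf1 and Ncf4 were within 2-fold in both. Among the gelatinase granule and secretory vesicle genes, Mmp25 and Lrg1 were higher in both libraries, Slc11a1 was lower in both, and Mmp9, Itgam, Fpr1, Fpr2, Retnlg, Adam8 and Cfp were within 2-fold. Ltb4r1, the leukotriene B4 receptor, was the trafficking receptor that was higher, at 158 against 26.4 CPM and 137 against 18.2 CPM. Cxcr4, a receptor for marrow retention, was lower in the unamputated library, at 143 against 420 CPM, and within 2-fold at 17 dpa, at 126 against 246 CPM.

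The mature and inflammatory list was lower in the chosen cells for 18 of 20 genes in the unamputated library and 14 of 20 at 17 dpa, with medians of −2.81 and −1.60. Il1b, the cytokine interleukin-1 beta, was at 332 against 3666 CPM and 516 against 3107 CPM. Cxcl2, a neutrophil-attracting chemokine, was at 629 against 6674 CPM and 1445 against 6004 CPM. Csf3r, the receptor for granulocyte colony-stimulating factor, was at 170 against 857 CPM and 193 against 631 CPM, but Csf3r, Cxcr2 and Il1r2 of this list helped to choose the low class. All 3 were among the 18 lower genes of the unamputated library, and Csf3r and Il1r2 among the 14 at 17 dpa, so the counts are partly set by that choice. Immediate early and stress genes were lower for 10 of 16 in both libraries, and 0 were higher. Of the interferon genes, Isg15, Ifitm1 and Ifitm2 were lower and Ifitm6 was higher in both.

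Proliferation genes differed between the 2 libraries in this contrast. In the unamputated library 2 of 20, Rrm2 and Hmgb2, were higher in the chosen cells, and at 17 dpa 18 of 20 were higher. The levels in the chosen cells were alike in both libraries, with Mki67 at 218 and 240 CPM and Top2a at 211 and 258 CPM. The levels in the low class were not: Mki67 was at 155 CPM in the unamputated and 36.4 CPM in the 17 dpa library, and Top2a at 164 and 21.1 CPM. In the unamputated low class, 62.6% of Mki67 UMIs came from 5 cells. The libraries thus differed in the comparison class and less in the chosen cells. Primary granule genes, whose levels also differed between the chosen cells of the libraries, were likewise higher more often at 17 dpa: of 7 tested in the unamputated library 2 were higher and 2 lower in the chosen cells, and of 8 tested at 17 dpa 7 were higher. The medians were −0.68 and, with the 4 genes at 0 UMIs in the 17 dpa low class set at 3 UMIs, 5.41.

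By the rule for named genes, the highest ratios in the unamputated library outside the rule genes were those of Lcn2, St8sia1, Chil3, Orm1, Ldhc, F730016J06Rik, Ppp1r42, Abca13, Fcnb and Cpa6. Abca13, a lipid transporter, was at 500 against 19.7 CPM, and Fcnb, the lectin ficolin-B of myeloid precursors, at 212.03 against 10.1 CPM. The lowest were AW011738, Car2, Ciart, Isg15, Gm4107, Cd274, A530013C23Rik, Gm39459, Ptgs2os2 and Gm34086. Cd274, the checkpoint ligand PD-L1, was at 20.6 against 290.0 CPM, and Isg15, an interferon-induced ubiquitin-like protein, at 9.46 against 151 CPM.

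**Figure D3:**
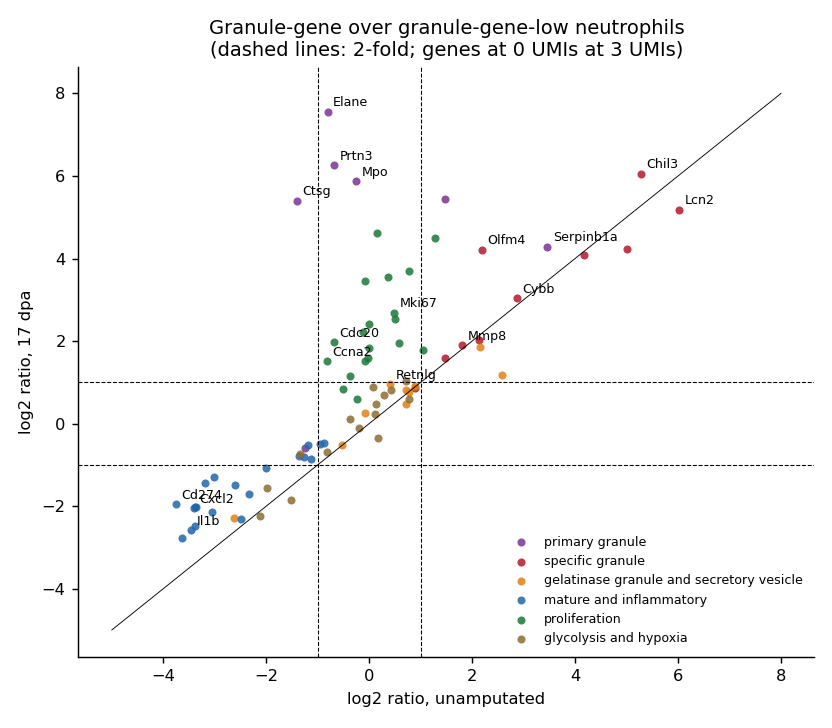
Log2 ratio of summed CPM in granule-gene over granule-gene-low neutrophils, unamputated library on the horizontal and 17 dpa on the vertical axis, for tested genes of 6 lists. Dashed lines mark 2-fold and the diagonal equal ratios; specific granule genes lie at the upper right, mature and inflammatory genes at the lower left, and primary granule and proliferation genes above the diagonal.

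The chosen cells differed widely among themselves. The share of a cell's UMIs from Camp, Ngp and Ltf had a median of 7.36% (quartiles 3.15 and 9.61, highest 15.5) in the unamputated library and 5.61% (1.62 and 9.39, highest 16.5) at 17 dpa. The cells of each library were put in order of this share and divided into 3 groups of nearly equal size, lowest, middle and highest, with 181, 181 and 180 cells in the unamputated library and 77, 76 and 76 at 17 dpa. Granule genes ordered the cells, so these levels are a description. The groups were cut within each library, so their limits differ between the libraries. The lowest group ended at a share of 4.71% in the unamputated library and 3.04% at 17 dpa, and the middle group at 8.98% and 8.66%. Median UMIs per cell were 5131, 8016 and 8358.5 in the unamputated and 4661, 5942.5 and 7402 in the 17 dpa library, and levels are given as CPM.

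Cebpe followed the granule share, at 30.1, 136 and 214 CPM from the lowest to the highest group in the unamputated library and 34.2, 136 and 262 CPM at 17 dpa. Chil3 was at 598, 4020 and 5991 CPM and at 182, 2886 and 5890 CPM. Lcn2 was at 2902, 8940 and 12412 CPM and at 1966, 7727 and 13505 CPM. All of these increased in the same order in both libraries, as did Cybb, Ltb4r1, Serpinb1a, Orm1 and Ly6g. Ly6g, for example, was at 165, 271 and 382 CPM and at 132, 231 and 325 CPM.

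Other granule genes ran against this order or peaked within it. Retnlg, a resistin-like protein of later neutrophils, was at 12698, 6639 and 1764 CPM in the unamputated library and 15517, 12958 and 3156 CPM at 17 dpa. Mmp8 was highest in the middle group of both libraries, at 739, 796 and 353 CPM and at 613, 858 and 362 CPM. Mmp9, gelatinase B, had the same shape, at 530, 630 and 372 CPM and at 454, 704 and 425 CPM. Cells with the highest granule share thus had the lowest levels of these 3 genes.

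Cytokine genes were low in the cells with the highest granule share. Il1b was at 500.5, 430 and 57.3 CPM in the unamputated library and 901, 554 and 44.5 CPM at 17 dpa. Cxcl2 was at 772, 849 and 257 CPM and at 2443, 1433 and 332 CPM. The whole mature and inflammatory list took 0.468%, 0.446% and 0.189% of UMIs in the unamputated and 0.941%, 0.605% and 0.258% in the 17 dpa library. The proliferation list went the other way, from 0.235% to 0.479% and 0.606% and from 0.193% to 0.474% and 0.754%. Mki67 was at 112, 261 and 285 CPM and at 88.2, 212.02 and 440 CPM.

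Markers of other types moved with this order too. The fibroblast marker Col1a1 was at 2644, 466 and 73.1 CPM in the lowest, middle and highest group of the unamputated library and 4830, 1275 and 130 CPM at 17 dpa. Scrublet marked 51, 27 and 8 cells in the unamputated library and 27, 17 and 4 at 17 dpa. Ribosomal protein genes took 6.05%, 3.13% and 3.36% of UMIs and 7.45%, 5.0% and 4.25%. The part of these cells in the order of the cytokine genes was not tested.

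**Figure D4:**
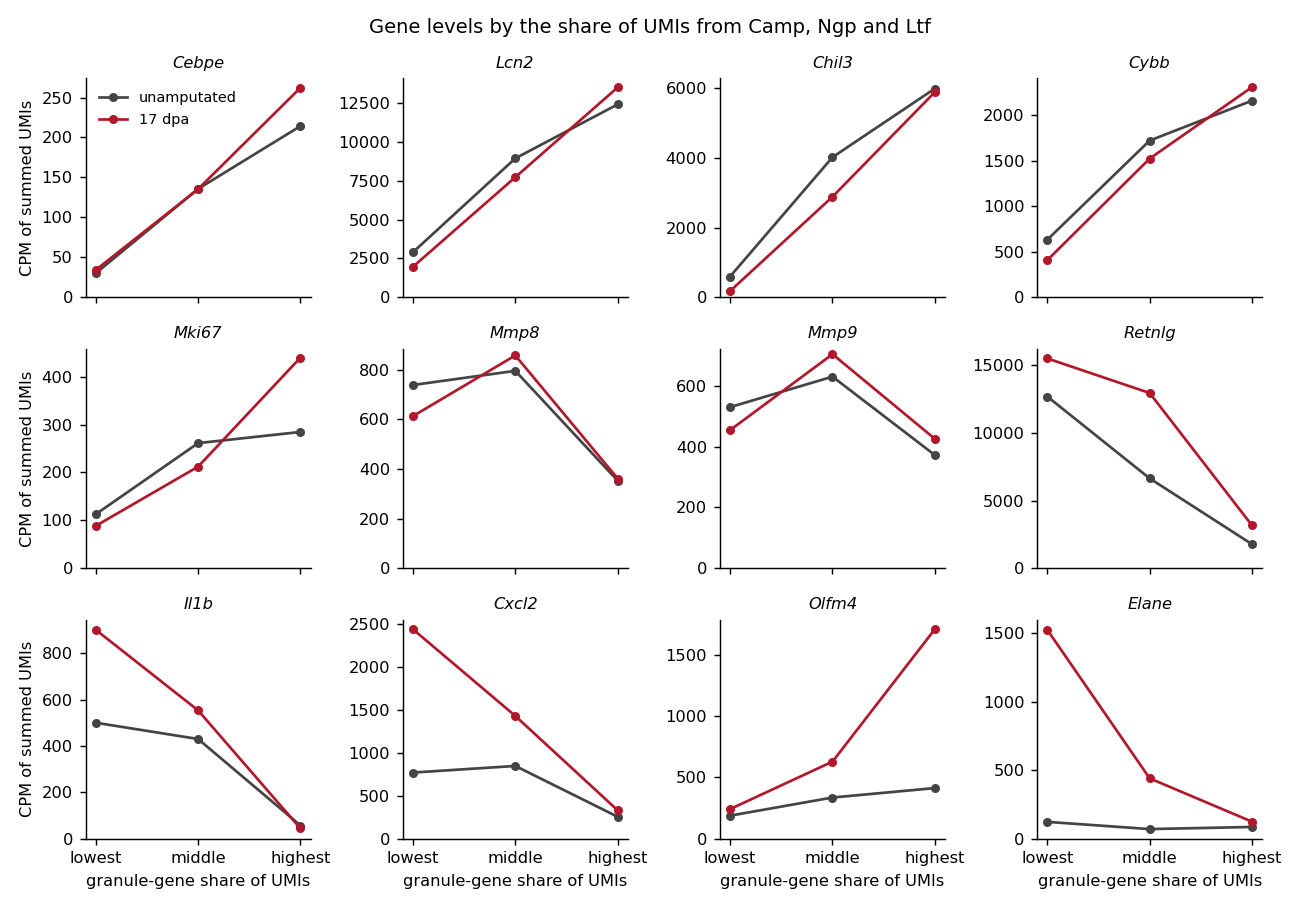
CPM of summed UMIs of 12 genes in the lowest, middle and highest groups of granule-gene neutrophils by the share of UMIs from Camp, Ngp and Ltf, in the unamputated (grey) and 17 dpa (red) libraries. Cebpe, Lcn2, Chil3, Cybb and Mki67 increase to the right in both libraries, Retnlg and Il1b decrease, and the libraries lie farthest apart in the highest group for Olfm4 and in the lowest group for Elane.

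A share of the chosen cells was cycling by the transcripts of Mki67 or Top2a, a proliferation antigen and a topoisomerase of dividing cells. Each cell was thinned to 2000 UMIs so that depth was equal, which left out 11 chosen cells of the unamputated library and 5 at 17 dpa. A UMI of either gene was then found in 19.0% of 531 cells (15.8 to 22.6) and 20.1% of 224 cells (15.0 to 25.9), and without thinning in 28.0% and 29.7%. The granule-gene-low neutrophils, of which 77 and 85 were too shallow, had 8.35% (5.85 to 11.5) and 6.25% (2.74 to 11.9) at the same depth. Fibroblast-like cells had 7.79% and 3.09%, which also holds their own cycling cells. The shares of the chosen cells lay within each other's intervals in the 2 libraries and above those of both other classes.

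Between the libraries, most genes of the chosen cells were at like levels. Of 5996 genes with at least 20 CPM in either library, 158 (2.64%) were past 2-fold higher at 17 dpa and 77 (1.28%) past 2-fold lower, with a median log2 ratio near 0. These ratios compare 1 library with 1 library. The split moved with cells of mixed identity: with the cells marked by Scrublet left out, 109 genes were higher and 150 lower, and with cells carrying markers of other types left out, 91 and 113. The share of higher genes among the called ones was 67.2%, 42.1% and 44.6% in the 3 settings.

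The genes that chose the cells were within 2-fold. Ngp was at 22366 CPM in the unamputated library and 19097 CPM at 17 dpa, Ltf at 5772 and 4409 CPM, S100a8 at 108676 and 78826 CPM and S100a9 at 107409 and 108673 CPM. Of the 10 specific granule genes, 1 was past 2-fold higher and 0 lower, with a median of −0.08. Lcn2, Chil3, Mmp8, Pglyrp1, Cd177, Hp, Orm1, Cybb and Cyba differed by −0.30 to 0.09 log2 units. Pglyrp1, a peptidoglycan recognition protein, was at 1179 and 1129 CPM, and Hp, haptoglobin, at 619 and 659 CPM.

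Olfm4 was the exception among the specific granule genes. It encodes olfactomedin-4, which is known to be present in only a subset of mouse and human neutrophils. Its level was 311 CPM in the unamputated library and 834 CPM at 17 dpa, a log2 ratio of 1.42 (1.33 to 1.52). A UMI was found in 87 of 542 chosen cells (16.1%, 13.1 to 19.4) and 67 of 229 (29.3%, 23.5 to 35.6), against 0.247% and 0.410% of fibroblast-like cells. The excess was greatest in the cells with the highest granule share, where Olfm4 was at 413 CPM in the unamputated and 1708 CPM in the 17 dpa library, and least in the lowest group, at 188 and 242 CPM. The ratio was past 2-fold under every alternative that was run.

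Most primary granule genes were higher at 17 dpa, and few cells held most of their UMIs. Of 8 tested, 5 were past 2-fold higher and 0 lower, with a median of 1.82. Elane, neutrophil elastase, was at 93.9 and 728 CPM in the unamputated and 17 dpa libraries (log2 ratio 2.94, 2.81 to 3.10). Prtn3, proteinase 3, was at 69.7 and 369 CPM, Mpo, myeloperoxidase, at 44.7 and 226 CPM, and Ctsg, cathepsin G, at 24.7 and 162 CPM. Ms4a3, a membrane protein of granulocyte progenitors, was at 65.7 and 167 CPM. The difference lay mostly in the cells with the lowest granule share, where the list took 0.0675% of UMIs in the unamputated library and 0.366% at 17 dpa and where Scrublet marked the most cells. In the middle group the shares were 0.0578% and 0.146%, and in the highest 0.0750% and 0.0886%. The groups had unlike limits, with the lowest ending at a granule share of 4.71% in the unamputated library and 3.04% at 17 dpa. In granule-gene-low neutrophils the same 5 genes were past 2-fold lower at 17 dpa, of 7 tested, and 0 were higher. The median there was −3.81, with genes at 0 UMIs set at 3 UMIs over the class, where 5.77% of all genes were lower. The difference between the classes was not tested.

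The primary granule UMIs of the chosen cells were concentrated in single cells. The 5 cells with most Elane UMIs held 93.7% of them in the unamputated library and 85.5% at 17 dpa, and for Mpo the shares were 99.2% and 94.6%. Chosen cells with at least 10 UMIs of Mpo, Elane and Prtn3 together, a limit set after the values were seen, numbered 7 of 542 (1.29%, 0.521 to 2.64) and 10 of 229 (4.37%, 2.11 to 7.88). Without these cells 3 genes of the list still reached 20 CPM and 0 of them were past 2-fold, which is largely fixed by leaving out cells on their Mpo, Elane and Prtn3 UMIs. Of all filtered cells, 0.259% in the unamputated library and 0.173% at 17 dpa passed the limit of 10 UMIs. Serpinb1a, an inhibitor of the proteases, and Ctsc, the peptidase that activates them, were within 2-fold with all cells, at 287 and 319 CPM and at 68.3 and 58.2 CPM.

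Part of the mature and inflammatory list was also higher at 17 dpa. Of 20 tested, 8 were past 2-fold higher (Ccl3, Clec4e, Cd274, Ccl4, Acod1, Cxcl2, Il1rn and Clec4d), 0 were lower, 12 were within 2-fold, 18 ratios were above 0, and the median was 0.67. Over all genes tested, 2965 of 5996 ratios were above 0 and 2.64% were past 2-fold higher. Cxcl2 was at 629 CPM in the unamputated library and 1445 CPM at 17 dpa (log2 ratio 1.20, 1.13 to 1.27), with a UMI in 23.1% and 42.8% of chosen cells, against 11.5% and 14.6% of fibroblast-like cells. Ccl3, a chemokine for myeloid cells, was at 95.9 and 367 CPM (1.92, 1.77 to 2.10), but 5 cells held 45.5% and 70.2% of its UMIs. Clec4e, the receptor Mincle, was at 145 and 375 CPM, and Acod1, which makes itaconate, at 78.1 and 184 CPM. Il1r2, the decoy receptor for interleukin-1, and Msrb1 had ratios of −0.28 and −0.08.

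The count of inflammatory genes past 2-fold moved with the setting. With cells carrying markers of other types left out it was 4 of 20 (Ccl3, Ccl4, Clec4e and Cd274) with 15 ratios above 0 and a median of 0.41, and with Scrublet doublets left out it was 8 of 20 with a median of 0.82. It was 6 of 20 with the rule, mitochondrial and ribosomal genes left out of the CPM total, and 6 of 20 as a mean over cells. In the granule-gene-low neutrophils, for comparison, 0 of the same 20 genes were past 2-fold in either direction between the libraries, with a median of −0.24, where 7.68% of 7069 genes were higher and 5.77% lower. The difference between the classes in this respect was not tested. Macrophage markers, at 43.8 and 364 CPM in the chosen cells, moved in the same direction as the list, with all 5 of them above 0 in both libraries, and their part in the result was not tested.

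The lists of this paragraph gave 0 genes past 2-fold. They held too few genes to be set apart from the share of all genes past 2-fold, 2.64% higher and 1.28% lower. Of the 10 gelatinase granule and secretory vesicle genes, 0 were past 2-fold, and Retnlg was at 7132 and 10749 CPM (0.59). Of 8 transcription factors, 0 were past 2-fold: Cebpe was at 125 and 140 CPM, Spi1, which encodes PU.1, at 250 and 232 CPM, and Fli1 at 270 and 182 CPM. Of 20 proliferation genes, 0 were past 2-fold, with a median of 0.11, from Stmn1 at −0.77 to Mcm5 at 0.83. The 14 trafficking receptors, 5 interferon genes and 16 immediate early and stress genes that were tested gave 0 calls, with medians of −0.03, 0.09 and 0.18. The medians of the trafficking receptors, interferon genes and transcription factors changed sign under some alternatives, with ranges of −0.093 to 0.12, −0.11 to 0.18 and −0.13 to 0.011, so no direction is read from them.

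Glycolysis and hypoxia genes all had ratios below 0 at 17 dpa, 14 of 14, with 1 past 2-fold and a median of −0.24. Over all genes tested in the chosen cells, 2965 of 5996 ratios were above 0 and 1.28% were past 2-fold lower. The listed gene past 2-fold was Eno1, the glycolytic enolase, at 165 CPM in the unamputated library and 70.0 CPM at 17 dpa (−1.22, −1.50 to −0.98). Hk2, hexokinase 2, was at 87.0 and 44.0 CPM (−0.97) and Gapdh at 850 and 659 CPM (−0.37). In the granule-gene-low class Eno1 had a ratio of −2.04 between the same libraries, so it was not limited to the chosen cells. The list also had 0 of 15 ratios above 0 there, with a median of −0.51 against −0.08 over all genes of that class. Over all genes of that class, 3051 of 7069 ratios were above 0 and 5.77% were past 2-fold lower. Of these 15 genes, 1, Eno1, was past 2-fold lower and 14 were within 2-fold. Ribosomal protein genes of the chosen cells had a median of 0.46, with 62 of 73 ratios above 0 and 1 gene, Rpl35, past 2-fold lower. With the cells rich in Mpo, Elane and Prtn3 left out, 7 and 10 cells, the median was 0.23. In the granule-gene-low class the ribosomal median was 0.009, with 37 of 73 ratios above 0. Rpl35 was past 2-fold lower there too, as was Rpl29.

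**Figure D5:**
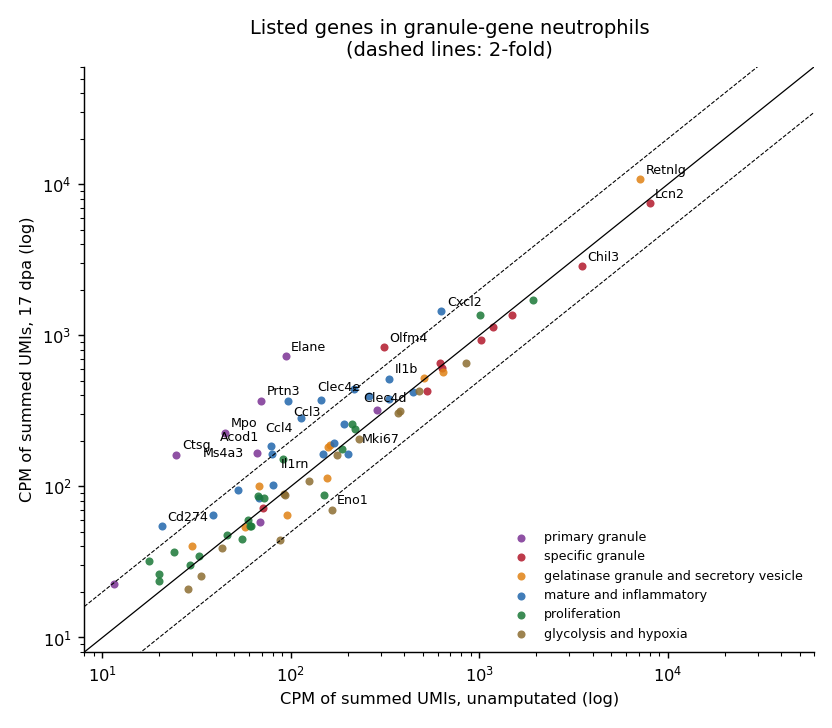
CPM of summed UMIs of tested genes of 6 lists in granule-gene neutrophils, unamputated library on the horizontal and 17 dpa on the vertical axis, both on log scales. The solid line marks equal levels and dashed lines 2-fold; 5 primary granule genes, 8 mature and inflammatory genes and Olfm4 lie above the upper line and Eno1 below the lower one.

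By the rule for named genes, the highest ratios at 17 dpa were those of Prg4, Elane, Saa3, Ctsg, Ms4a7, Prtn3, Gm15564, Fmod, Mpo and Mmp13, and the lowest those of Calm4, Ly6d, Krtdap, Mt4, Lgals7, Adamts9, Pkp4, Hist1h2ae, Kitl and Emcn. Many of these are genes of other tissues: 5 of the 10 highest and 1 of the 10 lowest, Hist1h2ae, were above the level of the other filtered cells in both libraries. Prg4, lubricin of the joint lining, was at 0.742 and 149 CPM, and 99.0% of its UMIs at 17 dpa came from 5 cells. Calm4, Ly6d, Krtdap and Lgals7 are keratinocyte genes, and the keratinocyte markers were higher in the unamputated library by the sums given above. With cells carrying markers of other types left out, the ratios of Adamts9, Kitl and Mt4 turned from −1.66, −1.52 and −2.09 to 1.27, 0.61 and 0.14, so no direction is read for these 3 genes.

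The same comparison was therefore also made over the 1963 genes that were above the other cells in both libraries, an alternative added after the values were seen. Of these, 37 were past 2-fold higher and 18 lower. Beside the genes already described, the highest included Slc7a11, the cystine and glutamate exchanger, at 178 and 468 CPM, and Il1f9, a cytokine of the interleukin-36 group, at 39.9 and 105 CPM. The lowest included the replication-linked histone genes Hist1h2ae (174 and 58.7 CPM), Hist1h2ap (79.6 and 30.7 CPM) and Hist1h2ak (90.5 and 43.5 CPM), and Hmgn2, a nucleosome-binding protein, at 919 and 436 CPM. In the other filtered cells the same genes were also lower at 17 dpa, with Hist1h2ae at 44.4 and 13.2 CPM, Hist1h2ap at 14.6 and 3.63 CPM, Hist1h2ak at 15.5 and 3.85 CPM and Hmgn2 at 71.2 and 28.5 CPM, so the difference was not limited to the chosen cells. Bmx, a kinase of the Tec family, was at 99.2 and 46.4 CPM, and St8sia1, a sialyltransferase, at 161 and 78.0 CPM. In the other filtered cells Bmx was at 7.20 and 2.78 CPM and St8sia1 at 2.36 and 1.63 CPM. Both values were lower at 17 dpa there too, but all lay below the minimum of 20 CPM. Whether those cells themselves transcribe the 2 genes was not tested. Replication-linked histone transcripts largely lack poly(A) tails, so the poly(A) capture used here reads them poorly.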

How the data were processed

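The deposited values were whole-number UMI counts per gene and cell from Cell Ranger, which the authors ran in version 7.1.0 against mm10, per the submitters' processing notes. Cell-calling settings are not given in the sources used here. Of 32285 genes listed by Ensembl ID, 32158 were found in GENCODE M21 (GRCm38), the source of gene coordinates. Python 3.11.15, numpy 2.4.6, scipy 1.17.1, pandas 2.3.3 and scanpy 1.11.5 were used.

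Cells were chosen by the thresholds given above, with no removal of doublets. Scrublet scores, taken at 0.8% per 1000 barcodes, were used only for an alternative. Counts were summed over the chosen cells of a library, so that n is 1 per group, and expressed as CPM. Ratios carry a pseudocount of 1 CPM and exact conditional binomial intervals, and shares carry exact Clopper-Pearson intervals. A share of 0 is given with the limit of 3 counts of its total. Fibroblast-like cells had at least 20 UMIs of Col1a1 and Col1a2 and fewer than 20 of S100a8 and S100a9. The ratios and their intervals were tested on simulated sums with independent counts for each gene. That test did not cover genes whose UMIs lie in few cells, so it cannot vouch for their intervals.

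The members and the gene lists were chosen with earlier results of these data known. Named genes were the members of the lists and the 10 highest and 10 lowest ratios at a minimum of 50 CPM in the group with the higher level, leaving out markers of other cell types, mitochondrial, haemoglobin, immunoglobulin and Y-linked genes, Xist and Tsix. Genes outside this rule (Ly6g, Col1a1 and those of the comparison over 1963 genes) were named after their values were seen. Alternatives covered the thresholds, the filter on cells, doublets, scaling, averaging, the pseudocount, the CPM minimum and thinning. The NADPH oxidase list as a whole is not reported here.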

Additional observations from a re-analysis of the deposited data

Results flagged for a closer look

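Granule-gene neutrophils were set against granule-gene-low neutrophils. Elane, Ctsg, Prtn3, Ccna2, Cdc20 and Cenpa then stood on opposite sides of equality in the unamputated and 17 dpa libraries. Their counting intervals were clear of 0 on both sides. These intervals take each UMI as independent and do not allow for UMIs held by few cells. The difference between the libraries was not tested, since each was 1 library. Elane had a log2 ratio of −0.81 in the unamputated library and at least 7.56 at 17 dpa, where the low class had 0 UMIs and was set at 3 UMIs over the class. Ctsg had −1.40 and, by the same floor, at least 5.40. Prtn3 had −0.68 and 6.26. In the unamputated low class, 5 cells held 99.7% of the Elane UMIs.

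Among proliferation genes, Ccna2 had log2 ratios of −0.81 and 1.51, Cdc20 of −0.68 and 1.98, and Cenpa of −0.51 and 0.85, in the same order. In the unamputated low class, 5 cells held 68.2% of the UMIs of Ccna2, 75.3% of those of Cdc20 and 49.8% of those of Cenpa.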

How the results depend on the processing

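No paired analysis was possible because each group held 1 library. The 12 and 28 dpa libraries had 0 chosen cells under every alternative run. Of filtered cells, chosen cells were 3.94% in the unamputated library with a looser filter on cells, 6.73% with a stricter one, 25.1% with cells carrying markers of other types left out (most of the denominator) and 3.42% with no filter. At 17 dpa they were 2.29% without Scrublet doublets, 16.1% without cells with other markers and 2.23% with no filter. Of S100a8 and S100a9 cells they were 58.1% and 58.0% with a minimum of 50 S100 UMIs and 65.1% and 72.7% with the stricter filter. Genes higher at 17 dpa numbered 84 at 50 CPM or more, 91 without cells with other markers and 37 among genes above the other cells. Genes lower numbered 31, 113 and 18 in these settings, 138 with rule, mitochondrial and ribosomal genes left out of the total, and 150 without Scrublet doublets, where the median of all genes moved to −0.10.

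The primary granule median was 2.27 with that other total, 1.57 as a mean over cells, 2.31 at 50 CPM or more and among genes above the other cells, 1.45 with a minimum of 20 granule UMIs, 1.52 without Scrublet doublets and −0.050 without cells rich in Mpo, Elane and Prtn3. The specific granule median turned to 0.029 and 0.0076 without Scrublet doublets and without cells with other markers, and the inflammatory median was 0.41 without the latter. Thinned to 1000 UMIs, 13.1% of chosen cells in each library had a UMI of Mki67 or Top2a, and 28.0% and 29.7% without thinning. Of the named genes whose counting interval left out 0, those that changed sign were Adamts9 (1.27), Kitl (0.61) and Mt4 (0.14) without cells with other markers, Mt4 (0.24) without Scrublet doublets, S100a9 (−0.039) with the other total, and Serpinb1a (−0.035 as a mean over cells, −0.050 without cells rich in Mpo). Lcn2 moved from −0.09 to 0.016, 0.063, 0.058 and 0.0035 with a mean over cells, without Scrublet doublets, without other markers and without cells rich in Mpo. Ratios whose interval held 0 turned too (Cebpe, Ctsc, Mmp8, Mmp9, Msrb1, Ncf1, Orm1, Pglyrp1 and Spi1). Over the lists, of 20 inflammatory genes 18 were above 0, and 15 without cells with other markers, and of 10 specific granule genes 3 were above 0, with 2 to 6 over the alternatives. Where cells were left out the construction removes them, and otherwise the cause was not tested. Single-library depth limits these results to counting error, and differences between animals were not measured.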

Other observations

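Cd3d, a T cell receptor subunit gene in the marker list for T or NK cells, was found in many granule-gene neutrophils. It had a UMI in 342 of 542 chosen cells of the unamputated library (63.1%, 58.9 to 67.2) and 129 of 229 at 17 dpa (56.3%, 49.6 to 62.9). Of these cells, 332 and 127 had no UMI of Cd3e, Cd3g, Trac, Trbc1 or Trbc2. In granule-gene-low neutrophils the share was 28.1%, 18.7%, 26.8% and 22.1% in the unamputated, 12, 17 and 28 dpa libraries, and in fibroblast-like cells it was 0.125% to 0.380%. Among the filtered cells with few S100a8 and S100a9 UMIs, 42 of 199 Cd3d-positive cells in the unamputated library and 28 of 114 at 17 dpa lacked the other 5 genes. Cd3d lies at chr9:44981786-44987339 (GRCm38, plus strand). This gene was singled out after its values were seen.

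Cells with transcripts of other blood cells and precursors were counted by limits also set after the values were seen. Filtered cells with at least 10 UMIs of Mpo, Elane and Prtn3 numbered 31, 0, 15 and 0 in the unamputated, 12, 17 and 28 dpa libraries, of which 7 and 10 were granule-gene neutrophils. Filtered cells with at least 5 UMIs of Vpreb1, Vpreb3, Igll1, Rag1 and Dntt, genes of precursor lymphocytes, numbered 29, 0, 12 and 2. Filtered cells with at least 5 UMIs of the B cell receptor genes Cd79a and Cd79b numbered 156, 1, 82 and 45.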
